A study of Homo sapiens with 14 samples.

Results

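ANKHD1 and ANKRD17 are the paralogous human genes for very long proteins that carry many ankyrin repeats and 1 KH domain. Their splice events were taken from the HEK293T table of alternative splicing by gene symbol, whatever the type of event, when the mean of the authors' WT and MT junction reads was at least 10. All 38 events of these genes met that minimum, 9 of ANKHD1 and 29 of ANKRD17, of 114349 events listed under 12516 gene symbols. The genes were chosen because of their splicing in these same WT and MT libraries, so the inclusion levels are given as a description. Counts of members past a threshold stand beside the share over all events, and nothing about the members is read from them. Another 15 events stood under the readthrough symbol ANKHD1-EIF4EBP3, whose transcripts share exons with ANKHD1, and they were not counted as members.

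The splice table compared 3 SF3B1 WT libraries (genotype K700K) with 3 SF3B1 MT libraries (K700E) of HEK293T, an embryonic kidney cell line in which the study introduced the mutation at the endogenous locus. DRIP-seq, which recovers DNA:RNA hybrids (R-loops) with an antibody, came from Nalm-6, a leukemic B cell line with the same pair of genotypes, as 2 libraries each of untreated WT, untreated MT, RNH1-treated WT and RNH1-treated MT DNA. RNH1 is the enzyme RNaseH1, which removes the RNA strand of a hybrid. The study describes the genotypes of each cell line as isogenic. The sources used here name no clones and do not say how the replicates were grown. All libraries of a genotype in a cell line may come from 1 clone. The deposited files give neither expression levels for cell type markers nor the edited codon. For each event the authors listed 6 MT values although the series has 3 MT samples, and the 3 MT columns used here equal the first, second and sixth of them. The mean MT junction reads are over all 6, so the MT columns are numbered 1 to 3 without a link to a numbered library. Depth was similar in both groups, with a median of 81.7 mean junction reads per tested event in WT and 82.7 in MT.

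Ankyrin repeats are stacked helical units that bind other proteins, and KH domains bind single-stranded RNA. The fly ortholog, Mask, and both human proteins are known as cofactors of YAP, the transcriptional effector of the Hippo pathway. SF3B1 is the part of the U2 snRNP that holds the branch point during 3′ splice site selection, and hotspot mutations such as K700E are known for the use of cryptic AG dinucleotides near the normal 3′ splice site. An alternative 3′ splice site event (A3SS) therefore asks directly which AG was used. The inclusion level of such an event is the fraction of length-normalised reads that carry the longer form, from 0 to 1.

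The coding sequence of both genes is spread over 34 exons that pair one to one and in order. In the MANE Select transcripts, ENST00000360839.7 for ANKHD1 and ENST00000358602.9 for ANKRD17, the proteins have 2542 and 2603 residues, and 64.9% of 2473 aligned positions are identical. ANKHD1 (ENSG00000131503) lies at chr5:140401814-140539856 on the plus strand and ANKRD17 (ENSG00000132466) at chr4:73073376-73258798 on the minus strand of GRCh38/hg38. Of the 34 exon pairs, 25 have the same length. Identity was 90.2% in exon 3 and 100% in exon 10, and only 35.4% in exon 16.

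**Figure D1:**
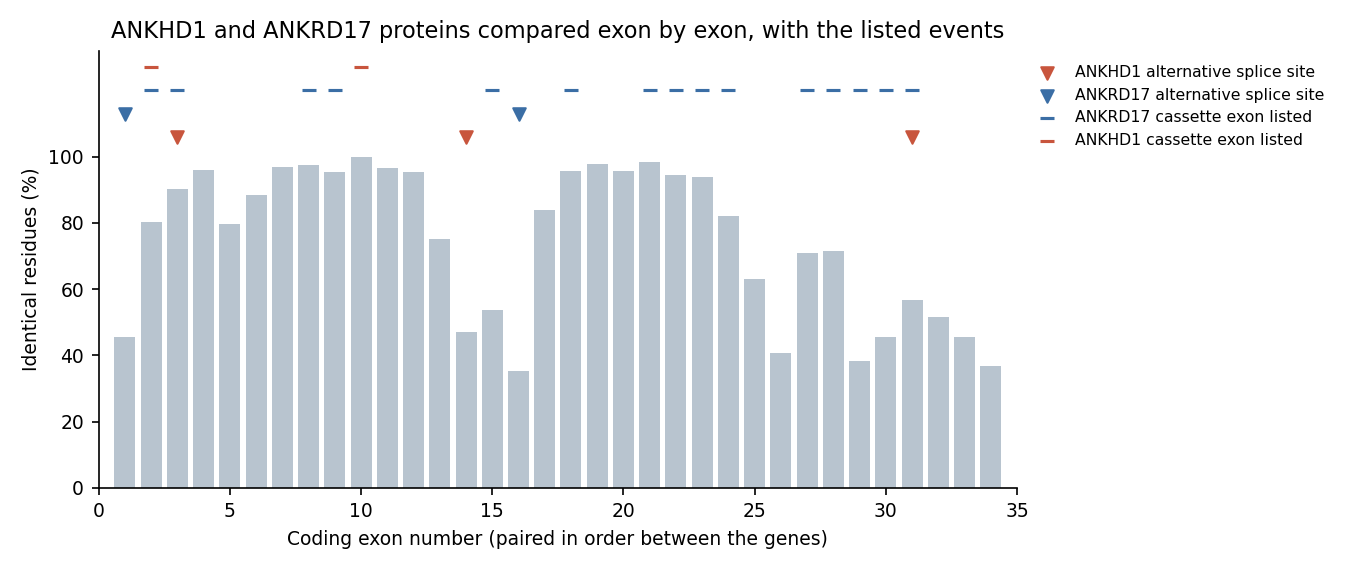
Bars give the percent of aligned residues that are identical for each of the 34 paired coding exons of ANKHD1 and ANKRD17 (x axis, exon number). Triangles mark exons with a listed alternative splice site and dashes mark exons listed as cassettes, in red for ANKHD1 and blue for ANKRD17. Alternative sites were listed in exons 3, 14 and 31 of ANKHD1 and in exons 1 and 16 of ANKRD17, never in the same pair.

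Exon 3 of ANKHD1 carried the events with the widest gap between WT and MT, and its 3′ splice sites are shown first with the matching stretch of ANKRD17. The stretch runs from 40 intronic bases before the first site to 12 bases past the third. Capitals mark the AG of each of the 3 sites in ANKHD1 and, in ANKRD17, the AG of its 1 listed site and the 2 dinucleotides 33 and 42 nt further on. Both lines were read from hg38, at chr5:140438421-140438514 on the plus strand and chr4:73161295-73161388 on the minus strand.

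ANKHD1 exon 3: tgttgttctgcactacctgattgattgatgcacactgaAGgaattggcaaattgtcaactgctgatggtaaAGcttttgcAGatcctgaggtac

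ANKRD17 exon 3: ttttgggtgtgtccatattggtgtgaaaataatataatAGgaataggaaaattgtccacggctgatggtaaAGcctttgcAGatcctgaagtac

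The exons are 157 nt long in both genes. ANKRD17 also has AG at both downstream positions, and 88.1% of the first 42 exonic bases were identical, against 79.1% of the rest of the exon and 35% of the 40 intronic bases before it. Before the first site, 9 of 20 bases were pyrimidines in ANKHD1 and 7 of 20 in ANKRD17, and 10 of 20 preceded each of the ANKHD1 sites 2 and 3. Over 17135 annotated protein-coding 3′ splice sites of chromosomes 4 and 5 that end in AG, the median was 15 of 20. Only 2.83% of these had 10 or fewer and 0.222% had 7 or fewer. Such a count describes the letters and not the use of a site.

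Site 1 at chr5:140438461 was the start of this exon in 5 annotated ANKHD1 transcripts, and sites 2 and 3, 33 and 42 nt downstream, were each used by 1. All of the stretch between them is coding, and skipping 33, 42 or 9 nt keeps the reading frame. For the event of site 1 against site 2, the inclusion level of the 33 nt was 0.994, 0.978 and 0.987 in the WT libraries and 0.511, 0.655 and 0.651 in the MT libraries. All 3 MT libraries stood below all 3 WT libraries, with means of 0.986 ± 0.008 and 0.606 ± 0.082 (SD, n = 3 each) and a difference of -0.381. Leaving out any 1 library kept the difference between -0.405 and -0.333.

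For the event of site 2 against site 3, the level of the 9 nt between them was 0.452, 0.551 and 0.383 in WT, against 0.794, 0.799 and 0.730 in MT. Here MT stood above WT without overlap, with means of 0.462 ± 0.084 and 0.774 ± 0.039 (SD, n = 3 each) and a difference of 0.312, or 0.273 to 0.357 with any 1 library left out. For the event of site 1 against site 3, the level of the 42 nt was 0.830, 0.858 and 0.768 in the WT libraries and 0.785, 0.855 and 0.795 in MT. These groups overlapped and their difference of -0.007 lay well inside the SD of 0.046 in WT and 0.038 in MT. Of the 3 comparisons at this exon, those that involved site 2 separated the genotypes and the one without it did not.

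**Figure D2:**
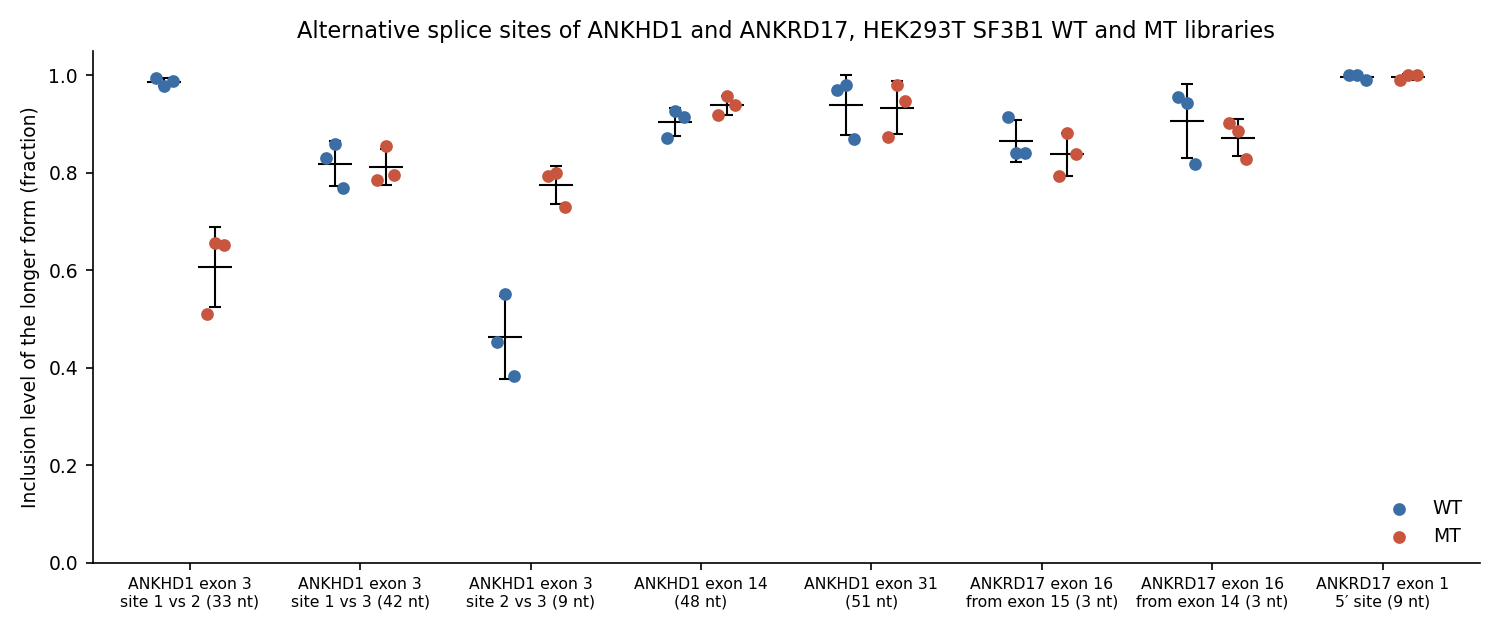
Inclusion level of the longer form (y axis, fraction) for the 8 alternative splice site events of ANKHD1 and ANKRD17 (x axis). Points are HEK293T libraries, blue for WT and red for MT, and black marks give the mean and SD of 3. WT and MT were apart in the 33-nt and 9-nt events of ANKHD1 exon 3 and overlapped in the other 6.

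These levels can be turned into shares of the 3 sites, taking the odds of site 2 and of site 3 against site 1 from the 33-nt and 42-nt events. Site 1 then took 82.6%, 84.2% and 76.0% in the WT libraries and 44.8%, 59.0% and 55.7% in MT. Site 2 took 0.499%, 1.89% and 1.00% in WT and 42.9%, 31.1% and 29.9% in MT, so that a site hardly seen in WT took about as much as site 1 in 1 MT library. Site 3 took 16.9%, 13.9% and 22.97% in WT and 12.3%, 9.998% and 14.4% in MT, ranges that met between 13.9% and 14.4%. Mean shares for sites 1, 2 and 3 were 80.9% ± 4.32, 1.13% ± 0.706 and 17.9% ± 4.60 in WT, against 53.2% ± 7.40, 34.6% ± 7.20 and 12.2% ± 2.19 in MT (SD, n = 3 each).

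**Figure D3:**
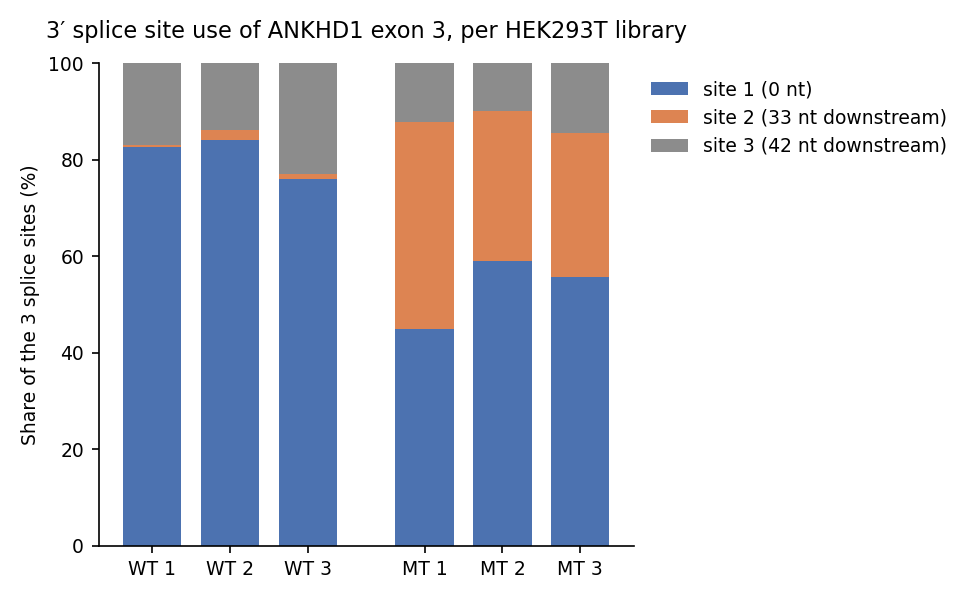
Stacked bars give the share (y axis, percent) of the 3 alternative 3′ splice sites of ANKHD1 exon 3 in each HEK293T library, computed from the inclusion levels. Site 2 (orange) lay between 0.499% and 1.89% in WT and between 29.9% and 42.9% in MT.

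The authors' mean junction reads gave similar shares, but the levels rest on reads of the same events, so this is no independent support. Exon 2 joined to site 1 was listed under the readthrough symbol, and subtracting from its inclusion reads those of the junction upstream of exon 2, 148.7 in WT and 154.8 in MT from 2 cassette events each, left 167.7 reads into site 1 in WT and 103.3 in MT. Site 2 had 2.67 junction reads in WT and 65 in MT, and site 3 had 42 and 26.7. In percent of the 3 junctions these are 79.0, 1.26 and 19.8 in WT and 53.0, 33.3 and 13.7 in MT. They are means over the listed values, so they carry no SD, and reads of ANKHD1 and of the readthrough transcript cannot be told apart at this shared exon.

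The same reads bear on the 9-nt event. Of its 39.7 mean inclusion reads in WT, 37 (93.3%) were not junction reads into site 2, and of 108.2 in MT, 43.2 (39.9%) were not. The same 37 and 43.2 reads are the excess of inclusion reads in the 42-nt event over the 33-nt event. By junction reads alone site 2 took 5.97% of sites 2 and 3 in WT and 70.9% in MT, whereas the deposited levels for that pair were 0.383 to 0.551 in WT and 0.730 to 0.799 in MT. The deposited level of the 9 nt was therefore above the junction share in WT, and the gap between the genotypes was wider by junctions. Because reads that also count for site 1 against site 3 enter it, that level does not measure site 2 against site 3 alone.

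Across the table, limma called 26 of 83581 tested events at an adjusted p under 0.05 and a difference above 0.1, which is 0.0311%, in 19 genes, and 12 of the 26 were among the 5351 A3SS events tested. Of the members, 37 could be tested, since 1 ANKRD17 cassette had the level 1 in every library, and 2 were called, the 33-nt and the 9-nt event of ANKHD1. With any 1 library left out the 33-nt event alone was called, and with a logit transform or without the variance trend neither was. By size of difference the 33-nt event ranked 9 and the 9-nt event ranked 16 among the 26, and the 33-nt event ranked 12 among all A3SS events tested. A difference of at least 0.1 was seen in 5.82% of tested events and in 2 of the 37 members, the same 2. Libraries of WT and MT did not overlap in 5.46% of tested events and in 3 of the 37 members. The third was the ANKRD17 cassette exon 30, described below.

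**Figure D4:**
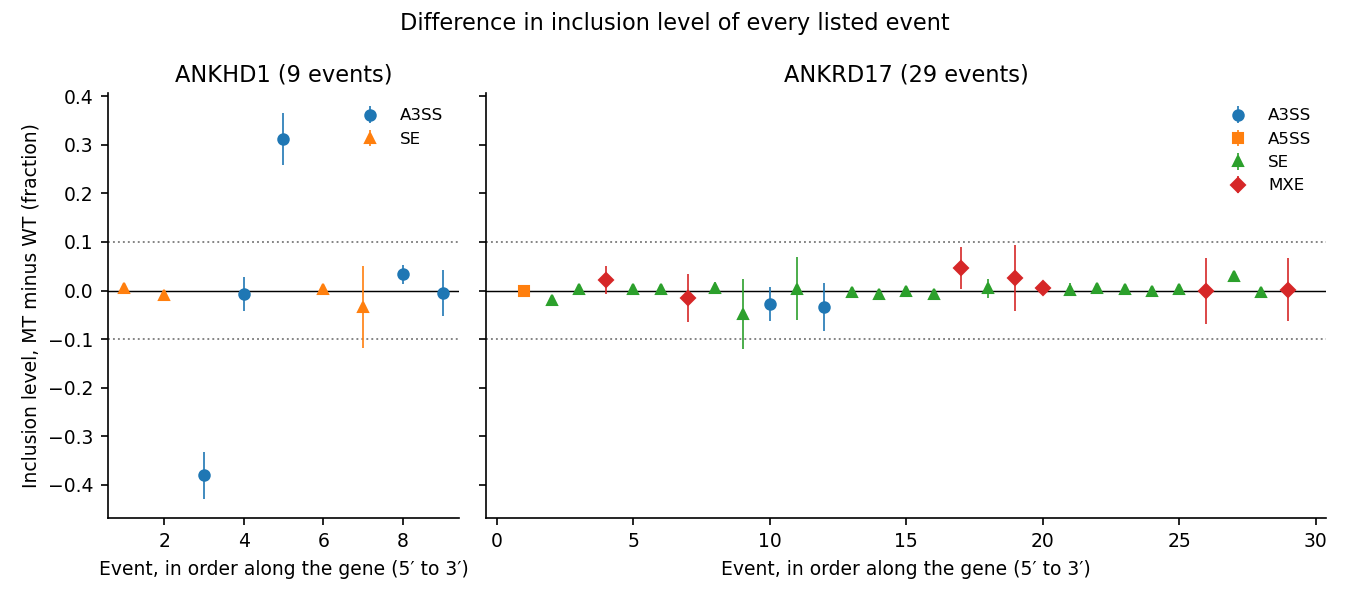
Each point is 1 of the 38 events, in order along its gene (x axis), with the inclusion level in MT minus WT (y axis, fraction). Bars are the standard error of the difference from 3 libraries in each group, and dotted lines mark -0.1 and 0.1. In ANKHD1 only the events at -0.381 and 0.312 lay beyond the lines, and in ANKRD17 all 29 lay between -0.048 and 0.047.

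Of the remaining A3SS events of ANKHD1, the first chooses between sites 48 nt apart at the start of exon 14, a poorly conserved exon with 47.1% identity between the paralogs. Its sites are shown for contrast with exon 3, since 15 and 14 of the 20 bases before them were pyrimidines. The paired exon of ANKRD17 has 15. Capitals mark the AG of each listed site, at chr5:140486918-140487017 on the plus strand and chr4:73141832-73141883 on the minus strand of hg38.

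ANKHD1 exon 14: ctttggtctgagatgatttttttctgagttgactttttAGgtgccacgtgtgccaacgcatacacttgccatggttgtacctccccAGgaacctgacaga

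ANKRD17 exon 14: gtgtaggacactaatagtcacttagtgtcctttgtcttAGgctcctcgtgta

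The level of the 48 nt was 0.872, 0.926 and 0.915 in WT, against 0.919, 0.957 and 0.938 in MT. The groups overlapped, and the difference was 0.034 with SDs of 0.029 and 0.019. The longer form is annotated in 4 ANKHD1 transcripts and the shorter in 1, and the segment is coding. A further pair of sites lies 51 nt apart at exon 31, where the extra bases chr5:140537338-140537388 are coding in other transcripts but outside the MANE coding sequence. Its level was 0.969, 0.980 and 0.868 in the WT libraries and 0.874, 0.980 and 0.946 in MT, again overlapping, on 67.5 mean reads. This place overlaps SRA1 on the opposite strand. Methods name a stranded RNA-Seq kit, but the sources used here do not say whether reads were counted by strand.

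ANKHD1 had 4 cassette exon events (SE). Exon 2, which joins the first exon to exon 3, was listed against site 2 and against site 3 of exon 3 and was included at 0.974 or above in every library. Exon 10, the exon with full identity to its paralog, was at 0.992 or above. The exception was a 57-nt exon at chr5:140472239-140472295, in the intron between exons 10 and 11, which keeps the reading frame and is annotated in 2 ANKHD1 transcripts. Its level was 0.559, 0.526 and 0.694 in WT, against 0.679, 0.549 and 0.448 in MT. The libraries of both genotypes were interleaved, with a difference of -0.034 and SDs of 0.089 and 0.116.

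ANKRD17 had the larger number of events, with a median absolute difference of 0.005 over its 29 events, 0.009 over the 9 of ANKHD1 and 0.014 over all tested events. Levels were at 0.95 or above in all 6 libraries in 17 of the 29, in 3 of the 9 and in 29885 of 83581 tested events. Such events leave little room for a difference. Over A3SS events alone the medians were 0.031 in ANKRD17 and 0.034 in ANKHD1. Of the 28 testable events of ANKRD17, 0 were called by limma with Benjamini-Hochberg adjustment and 1 had an unadjusted p under 0.05, a level reached by 4.47% of all tested events. The genes were picked on this contrast, so these counts are a description. Both of its A3SS events describe 1 choice at exon 16, an AG repeated after 3 nt, from different upstream exons. The sites are shown beside exon 16 of ANKHD1, which has 1 AG at this place. Capitals mark the AG of each listed site, at chr4:73135251-73135305 on the minus strand and chr5:140504781-140504832 on the plus strand of hg38.

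ANKRD17 exon 16: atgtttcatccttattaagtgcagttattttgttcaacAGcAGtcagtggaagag

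ANKHD1 exon 16: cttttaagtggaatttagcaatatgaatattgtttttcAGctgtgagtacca

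Exon 16 is 149 nt long in the MANE transcript of ANKRD17 and 146 nt in ANKHD1. Joined from exon 15, the level of the longer form was 0.915, 0.840 and 0.841 in the WT libraries and 0.793, 0.881 and 0.839 in MT. Joined from exon 14, it was 0.956, 0.943 and 0.818 in WT, against 0.901, 0.885 and 0.829 in MT. Both genotypes overlapped in both events, with differences of -0.028 and -0.034, and the first site was the main one throughout. These rested on 96.9 and 65.5 mean reads, the latter the lowest of all 38 members.

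The only alternative 5′ splice site of the genes lies at the end of the first exon of ANKRD17, where 9 nt can be added or left out. Its level was 1, 1 and 0.991 in the WT libraries and 0.989, 1 and 1 in MT, so the shorter form was close to absent in both genotypes.

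Among 19 cassette events of ANKRD17, 15 were at 0.95 or above in all 6 libraries. Exon 3, the partner of the ANKHD1 exon with 3 sites, was one of them, at 0.992, 1 and 1 in WT and at 1 in all MT libraries. No alternative 3′ splice site was listed for it. The best covered cassette, exon 18 with 385.3 mean reads, was at 1 in every library except 1 MT library at 0.99.

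Exon 30 was the 1 ANKRD17 event without overlap, at 0.978, 0.956 and 0.961 in WT and 0.984, 1 and 1 in MT. The difference was 0.030, and 0.025 to 0.036 with any 1 library left out. It rested on few skipping reads, with a mean of 3.33 in WT and 1.83 in MT. That MT mean is over all listed values. Whether the listed MT values not used here also stood above WT was not tested. The 198 nt of exon 30 keep the reading frame, and at 45.6% its residues are among the less conserved.

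The 753-nt exon 15 was included in part of the transcripts only. Joined to the shorter form of exon 16, its level was 0.95, 0.932 and 0.829 in WT, against 0.941, 0.890 and 0.736 in MT, and joined to the longer form it was 0.628, 0.575 and 0.655 in the WT libraries and 0.713, 0.650 and 0.507 in MT. Both comparisons overlapped, and the differences of -0.048 and 0.004 were smaller than the MT SDs of 0.107 and 0.106. Reads of the junction upstream of exon 15 count for both events and do not show which form of exon 16 follows. For the shorter form, 14.7 of 109.7 mean inclusion reads in WT and 15.3 of 107.3 in MT joined exon 15 to it. These levels therefore do not compare the inclusion of exon 15 between the forms. The paired 759-nt exon of ANKHD1 was listed only under the readthrough symbol, at 0.725, 0.680 and 0.740 in WT and 0.811, 0.675 and 0.573 in MT. In both paralogs exon 15 was thus left out of part of the transcripts in both genotypes, and the third MT column was the lowest in all 3 of these events.

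A 162-nt exon between exons 2 and 3 of ANKRD17, annotated in 1 transcript, was nearly absent. The WT libraries had levels of 0.025, 0.004 and 0.036, and the MT libraries 0.005, 0 and 0, on 108.4 mean reads. The ranges touched only between 0.004 and 0.005.

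The 7 mutually exclusive exon events (MXE) of ANKRD17 pair neighbouring exons, and 6 of them had levels between 0.277 and 0.602 in every library. The one with the most reads paired exons 3 and 2, at 0.456, 0.419 and 0.458 in WT and 0.515, 0.427 and 0.454 in MT. As cassettes, exons 2 and 3 were each at 0.992 or above in every library. The levels of that MXE event thus compared the reads of exons that were nearly always both present. The seventh MXE event, of exons 23 and 22, lay between 0.974 and 1, and no MXE difference exceeded 0.047.

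By the root mean square of the 6 differences between libraries, the events of other genes closest to the 33-nt ANKHD1 event were a retained intron of COASY (0.042), a cassette of KIF27 (0.059), a cassette of IDH3A (0.063), an A3SS of ZNF561 (0.067) and a retained intron of RP13-794C1.1 (0.074). KIF27 encodes a kinesin and IDH3A a subunit of a citric acid cycle enzyme. COASY encodes coenzyme A synthase, and its event was at 0.975, 0.981 and 1 in WT and 0.506, 0.723 and 0.725 in MT. MT column 1 was the lowest of the 3 in COASY, KIF27, IDH3A and ZNF561, as in ANKHD1, but not in RP13-794C1.1. The events were picked for likeness over these same columns, so this order is part of the choice and no separate result. Of these 5 only the COASY event was called by limma, and the KIF27, IDH3A and RP13-794C1.1 events rested on 20.7, 11.8 and 10.5 mean reads.

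Other genes of the Hippo pathway were looked up because of the YAP link, 26 genes with 214 tested events, among them the kinase LATS1 and the TEAD partners of YAP. In limma with Benjamini-Hochberg adjustment 0 were called and 7 (3.27%) had an unadjusted p under 0.05, beside 4.47% of all tested events. A difference of at least 0.1 was seen in 10 of them (4.67%, beside 5.82% of all, 6 higher and 4 lower in MT), with a median absolute difference of 0.0145 beside 0.0137 over all tested events. WT and MT libraries did not overlap in 15 (7.01%, beside 5.46% of all, 5 higher and 10 lower in MT), and the widest of these was an MXE event of LATS1, at 0.416, 0.333 and 0.294 in WT and 0.453, 0.548 and 0.538 in MT. MT stood above WT by 0.165, with an adjusted p of 0.856 in limma.

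Other genes for KH-domain proteins gave 315 tested events in 25 of 33 listed genes. Again 0 were called by limma after adjustment, with 14 (4.44%) at an unadjusted p under 0.05 beside 4.47% of all tested events. A difference of at least 0.1 was seen in 11 (3.49%, beside 5.82% of all, 6 higher and 5 lower in MT). The median absolute difference was 0.00567. The libraries did not overlap in 19 (6.03%, beside 5.46% of all, 7 higher and 12 lower in MT), and the widest of these was a cassette of SF1, the protein that binds the branch point before U2 does, at 1, 0.846 and 0.600 in WT and 0.481, 0.379 and 0.273 in MT. That difference of -0.438 rested on 19.7 mean reads and had an adjusted p of 0.513 in limma.

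DRIP-seq gave a readout that had no part in the choice of the genes, although in another cell line. ANKHD1 with 3 kb before its start held 6 and 7 peaks in the untreated WT libraries and 8 and 10 in the untreated MT libraries. ANKRD17 held 14 and 14 in WT and 21 and 26 in MT. MT was above WT in both genes, by a mean of 2.5 peaks in ANKHD1 and of 9.5 in ANKRD17. The SD of a difference between single libraries was 1.58 and 3.54. The two-sided exact permutation p was 0.333 for each (2 genes tested), the smallest that 2 libraries against 2 allow, so neither comparison could pass 0.05.

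Over the whole genome the MT lists were longer, with 254170 and 296533 peaks beside 123720 and 131096 in WT. Per 1000000 peaks of the library, ANKHD1 held 48.5 and 53.4 in WT and 31.5 and 33.7 in MT, and ANKRD17 held 113.2 and 107 in WT and 82.6 and 87.7 in MT. On that scale MT was below WT in both genes, so the direction depended on whether the length of the list was taken into account. Peak lists carry no read totals, and the depth of these libraries is unknown.

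RNH1 treatment did not empty either gene. The treated WT libraries held 2 and 5 peaks in ANKHD1 and 3 and 5 in ANKRD17, and the treated MT libraries held 12 and 8 in ANKHD1 and 18 and 16 in ANKRD17. The treated lists differed in length too, with 34952 and 77550 peaks in WT beside 201804 and 198837 in MT. Per 1000000 peaks of the library, ANKHD1 held 57.2 and 64.5 in treated WT, against 59.5 and 40.2 in treated MT, and ANKRD17 held 85.8 and 64.5, against 89.2 and 80.5, so the genotypes overlapped in both genes on that scale. Untreated peaks were called bona fide when the treated library with the same genotype and number had no overlapping peak, and they numbered 4 and 2 in WT and 3 and 4 in MT for ANKHD1, and 11 and 11 in WT and 7 and 12 in MT for ANKRD17. These ranges overlapped in both genes, with an exact permutation p of 1 each. The part of the shorter treated WT lists in these numbers was not tested.

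**Figure D5:**
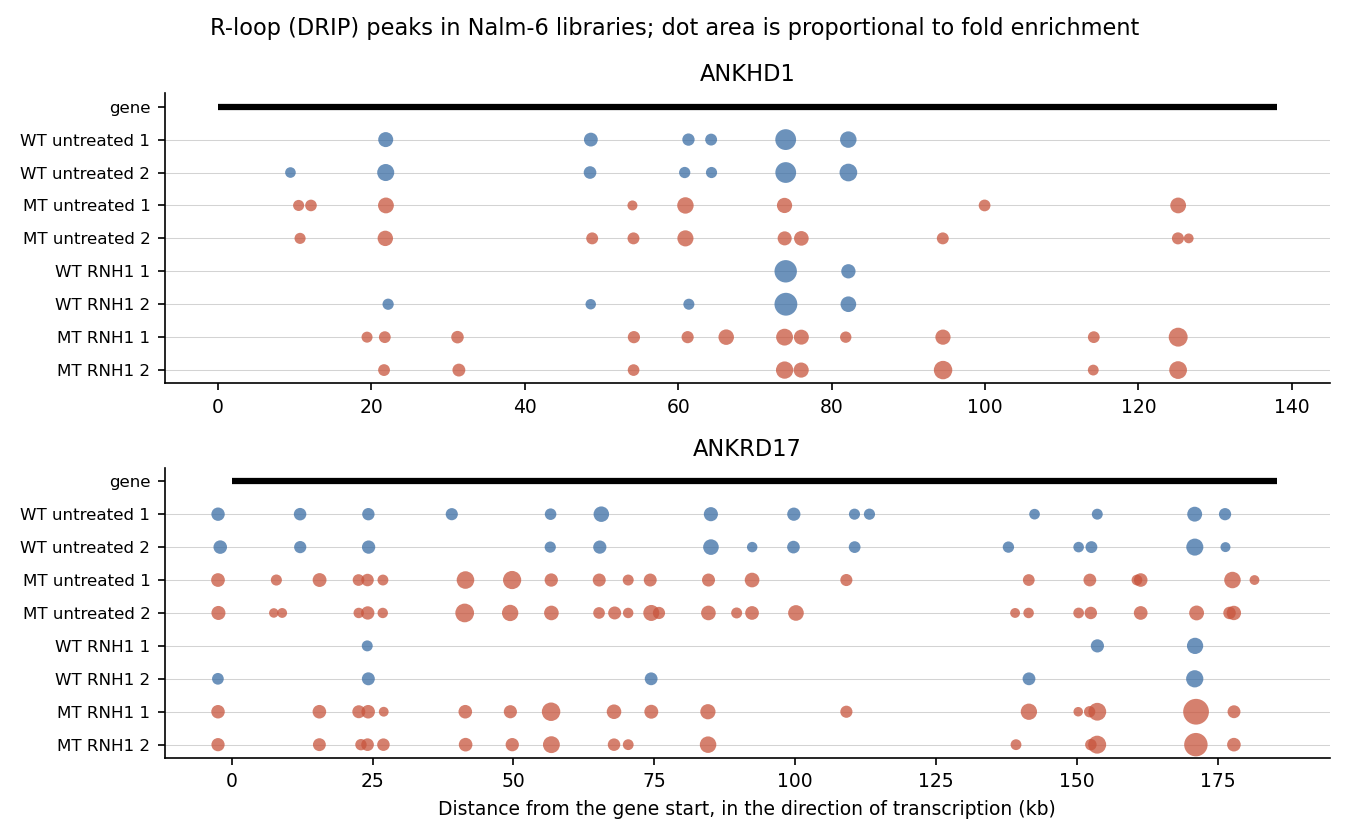
DRIP peaks of the 8 Nalm-6 libraries (rows, blue for WT and red for MT) along ANKHD1 and ANKRD17 (x axis, kb from the gene start in the direction of transcription). The area of a dot is proportional to the fold enrichment of the peak, and the black bar is the gene. ANKRD17 held 14 peaks in each untreated WT library and 21 and 26 in untreated MT.

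The peaks lay mostly in introns. No peak covered the start of either gene in any of the 8 libraries, and none lay on the exon of an alternative 3′ or 5′ splice site event. The stretch from exon 2 to exon 3 of ANKHD1, which holds the 3 sites, had 0 peaks in all 8 libraries. Peaks covered only 0.658% to 6.67% of either gene with its 3 kb, so their absence from a short exon or stretch says little. In ANKRD17 the first intron, the longest of 33 with 80742 nt or 43.5% of the gene, held 5 and 4 of the peaks in untreated WT and 11 and 13 in untreated MT. The first intron of ANKHD1, also its longest with 33830 nt, held 1 and 2 in WT and 3 and 2 in MT.

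The intron between exons 10 and 11 of ANKHD1, where the 57-nt cassette lies, had a peak in all 8 libraries that began at the same base, chr5:140475478, 3182 nt after the cassette. Without treatment its fold enrichment over local background was 12.5 and 12.4 in WT, against 6.69 and 5.70 in MT. With RNH1 it was 14.4 and 15.02 in the WT libraries and 8.18 and 8.62 in MT. WT stood above MT with and without treatment, and within each genotype the treated libraries stood above the untreated ones. The peak was noticed in the plotted data, so no test of it is given. A shared start was not particular to it, since another ANKHD1 peak began at chr5:140526835 in every MT library, treated and untreated. The DNA was cut with restriction enzymes before the antibody step, and whether such edges lie at cut sites was not tested.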

How the data were processed

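The HEK293T splice table came from paired-end RNA-Seq, for which Methods give the rMATS model. STAR, StringTie and BWA are named in the submitters' processing notes with GRCh38/hg38 and no versions. The authors' inclusion level is a fraction with 3 decimals, and the deposited mean junction reads of each group are a signal averaged by the authors over the listed values. Per-library lists in 6 further columns were not used, except to see which MT values the 3 MT columns hold, and the authors' own test columns (differences, p-values) were not used. Counts per library could not be tied to MT samples, so no count test was run.

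Levels were arcsine-square-root transformed and fitted over all 83581 events with a level in all 6 libraries, at least 10 mean reads and some variation, in limma 3.58.1 (R 4.3.3) with a variance trend on log mean reads and Benjamini-Hochberg adjustment. The fit was tested on simulated data. Called means an adjusted p under 0.05 and a difference above 0.1. Nothing says that libraries came from separate cultures, so p-values measure the spread between these libraries. Text gives in full each member event with a difference of at least 0.1, each without overlap, and the best covered event of each type per gene. Other member events in the text were added after their values were seen. The members and lists were chosen with earlier results of these data known.

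DRIP-seq peaks were called by the authors in each library with MACS2 after BWA-MEM alignment, and the deposited fold enrichment is a ratio over local background. Peaks were counted over each gene with 3 kb before its start and compared by exact permutation tests. Exons and sites came from GENCODE on hg38, proteins were translated from the MANE coding sequence and aligned with Biopython 1.88 (BLOSUM62), and Python 3.11.15 was used.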

Additional observations from a re-analysis of the deposited data

How the results depend on the processing

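The 26 calls over all events became 0 with a logit transform (2907 events at an unadjusted p under 0.05) and 0 without the variance trend (3200), and 22 and 26 with no read minimum and a minimum of 20. The 2 calls in ANKHD1 became 0 under the same logit transform and 0 without the trend, with 3 members at an unadjusted p under 0.05 in each. With any 1 library left out there were 3 to 13 calls over all events and 1 to 1 among the members, the 33-nt event each time, so the call of the 9-nt event rested on every library. The cause was not tested. The 3 events without overlap were unaffected by the read minimum.

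No paired analysis was possible because the MT columns of the splice table carry no settled replicate number. For DRIP peaks in untreated libraries, a replicate block must return the same mean differences, 2.5 peaks in ANKHD1 and 9.5 in ANKRD17. With every pair complete this is arithmetic and no further check. Bona fide peaks turned the ANKRD17 difference to -1.5. Peaks per 1000000 peaks of the library, a scale chosen after seeing the data, turned it to -24.8 and that of ANKHD1 to -18.3. Leaving out 1 library gave 1.5 to 3.5 in ANKHD1 and 7 to 12 in ANKRD17. With a fold enrichment of at least 4 the ANKHD1 difference was 1, with overlapping libraries (6 and 4 in WT, 4 and 8 in MT, exact permutation p of 1), and that of ANKRD17 was 6.5. The gene without the 3 kb and the bases covered gave more in MT for both genes.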
